A study of Mus musculus with 24 samples.

Results

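Nuclear genes for subunits of the 5 complexes of oxidative phosphorylation were described in the livers of C57BL/6J mice, an inbred laboratory strain. Members were taken by name from the array design: non-control probes for genes whose names start with Ndufa, Ndufb, Ndufc, Ndufs, Ndufv, Sdha, Sdhb, Sdhc, Sdhd, Uqcr, Cox4, Cox5, Cox6, Cox7, Cox8 or Atp5, leaving out the Ndufaf assembly factors. This gave 89 genes of the 24787 in the design with a RefSeq name, and 87 of them had a probe well above background on at least 20 of the 24 arrays (14824 genes in all met that limit). Each gene was read from its brightest such probe: 36 genes for complex I, 8 for complex II, 8 for complex III, 17 for complex IV and 18 for complex V. Both genes left out were tissue-restricted complex IV isoforms, Cox7b2 (well above background on 4 arrays) and Cox8c (3 arrays), and Cox8b was just inside the limit with 20 arrays.

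The prefixes also took in genes that are not structural subunits. These were the complex II assembly factors Sdhaf1 to Sdhaf4, the supercomplex factor Cox7a2l, the pseudogene Atp5c1-ps, Atp5s (now Dmac2l) and Atp5sl (now Dmac2, which helps to assemble the membrane arm of complex I). Without them 79 structural genes remained. The prefixes do not reach every nuclear subunit: Cyc1 of complex III is not counted there and is given below with the electron carriers. Ndufa4 and its relative Ndufa4l2 carry complex I names, and the Ndufa4 protein is now placed in complex IV, where both were counted.

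Oxidative phosphorylation takes electrons from NADH at complex I and from succinate at complex II, passes them through coenzyme Q to complex III and through cytochrome c to complex IV, and uses the proton gradient built on the way to make ATP at complex V. A few subunits are encoded by mitochondrial DNA, and the rest, including all of complex II, by nuclear genes. Liver is rich in mitochondria and uses this chain to pay for gluconeogenesis, urea synthesis and biosynthesis, and several complex IV subunits have separate muscle or brown fat isoforms.

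Per the labels, mice bought at 8 weeks were fed a control diet or the same diet enriched with a pesticide mixture for 52 weeks, and liver RNA was taken at an age labelled 68 weeks. These periods, with the acclimatisation of 2 weeks that the labels give, do not add up to the labelled age. There were 4 groups of 6 arrays: labelled male control, labelled male pesticide, labelled female control and labelled female pesticide. No transgene, deletion or other treatment is given for any group. The 24 single-colour arrays lay on 3 slides with 2 arrays of each group per slide, and were scanned on 1 day. No label gives a mouse number, so p-values measure the spread between these samples, which may be technical in part.

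Sex-linked transcripts went against the sex labels. Eif2s3y, a Y-linked gene, was well above background on all 6 arrays of both labelled control groups (mean log2 intensity 10.94 ± 0.05 and 10.99 ± 0.17 in labelled males and females, SD, n = 6) and on 0 arrays of both labelled pesticide groups. Xist, which silences the second X chromosome of females, was well above background on 0 labelled control arrays and on all 12 labelled pesticide arrays. The labelled diet therefore coincides with sex-linked transcripts on all 24 arrays, the effect of pesticide and a difference of sex cannot be told apart below, and each group is named by its label.

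Depth and tissue were checked on all arrays. The median probe signal was 63 to 109 and 29935 to 39032 probes per array were well above background, with 0 saturated spots. Both upper limits came from labelled female pesticide 3. The median signal tended to be higher in labelled pesticide. In labelled males it was 63 to 75 in control and 76 to 80 in pesticide, with no overlap. In labelled females it was 65 to 77 in control and 72.5 to 109 in pesticide. Its part in the differences below was not tested. All 10 hepatocyte markers were measured, with a mean level of 16.95 to 17.28 on the log2 scale on every array, and 1 of them passed the test between labelled diets in the mean over both labelled sexes, Fgb (higher). Markers of other liver cells differed between the labelled diets: labelled pesticide was higher in 11 of the 12 markers of Kupffer cells and other macrophages (median log2 difference 1.30), and in 8 of 8 of endothelial and 7 of 8 of stellate cells (medians 0.55 and 0.43). It was also higher in 4 of 5 neutrophil markers measured (median 0.64) and in 3 of 4 of B and plasma cells (median 1.04). Other lists did not rise as a whole. Of 5 T and NK cell markers 1 was lower and 1 higher, and of 4 erythroid markers 1 was lower and 2 higher. Of 4 bile duct markers 1 was lower and 0 higher. Among all genes 19.3% were lower and 20.6% higher. The mean level of the 12 Kupffer cell markers ran from 10.2 to 11.84 in labelled male control and from 11.53 to 12.37 in labelled male pesticide, and from 10.01 to 12.20 and from 11.07 to 12.74 in labelled female control and pesticide. Its part in the differences below was not tested. In whole liver, fewer cells of a type and less RNA per cell cannot be told apart.

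Between the labelled diets, the subunit genes differed little. In labelled males 7 of the 87 genes were lower in pesticide and 1 was higher (limma, Benjamini-Hochberg adjusted p under 0.05 over the 32078 probes tested), against 11.0% lower and 14.4% higher of all 14824 genes (25.4% in either direction). In labelled females 5 were lower and 1 higher, against 10.2% and 10.9% of all genes (21.0% in either direction). Averaged over both labelled sexes, 15 were lower and 2 higher, which is 19.5% of the members against 39.9% of all genes (19.3% lower and 20.6% higher). With quantile normalization, the share of members called was below that of all genes in each of the 3 comparisons, and the lower calls alone in the mean (15 of 87) were near their background.

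Differences were small. In the mean over both labelled sexes the median member differed by -0.05 on the log2 scale (-0.06 in labelled males and -0.04 in labelled females), against -0.02 for all genes. Of the 87 genes, 63.2% lay within 0.1 of 0, against 36.2% of all genes. No member reached a 2-fold difference, and 388 of all 14824 genes did. At so small a share few of 87 genes would reach it, so 0 members is near the background. The arrays also agreed closely with each other on these genes: the pooled SD within groups had a median of 0.12 over the members and 0.18 over all genes. It was over 0.3 for 4 members, Cox6a2, Cox7a1, Cox8b and Atp5s. Of these Cox6a2, Cox8b and Atp5s were dim, with labelled control means of 6.37, 6.39 and 6.46. Members and all genes were not matched on signal level, for this SD or for the share within 0.1. The sign of the difference was the same in labelled males and labelled females for 78 of 87 members (89.7%), against 79.9% of all genes. These comparisons share no arrays, but their arrays lie on the same slides and were normalized together. The members also moved together by array, so they are not separate checks. Their median centred level ran from -0.116 (labelled male pesticide 4) to 0.113 (labelled male control 1). Between the labelled sexes, where no gene passed, 74.7% of members were lower in labelled males in control and 81.6% in pesticide. The shares of all genes were 53.4% and 50.7%.

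How many genes passed depended on the scaling of the arrays. With each array scaled to its 75th percentile in place of quantile normalization, 16 members were lower and 0 higher in labelled males, and 29 were lower and 1 higher in the mean. With the scanner's processed signal scaled in that way, 18 were lower and 1 higher in labelled males, and 36 lower and 1 higher in the mean. The median member then stood at -0.11 and -0.13 in the mean, while the median of all probes tested stood at -0.05 and -0.04. In labelled females the same scalings called 6 and 8 members. In labelled males 18.4% and 21.8% of the members were thus called on the median and the processed signal, against 22.7% and 24.1% of the probes tested, and in labelled females 6.9% and 9.2% against 17.2% and 18.9%. In the mean the shares were 34.5% of the members against 35.9% of the probes on the median signal, and 42.5% against 37.6% on the processed signal, where the share of members was the higher. With quantile normalization 36.1% of the probes were called in the mean.

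**Figure D1:**
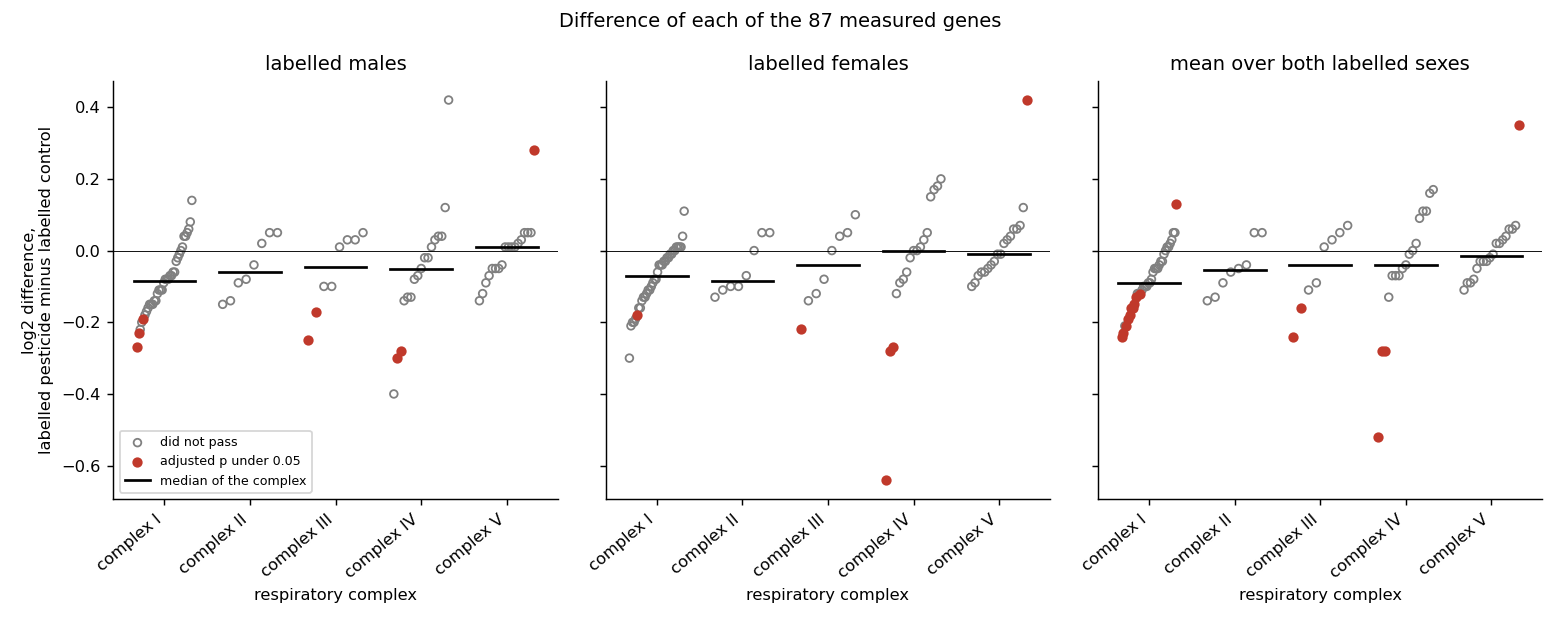
Log2 difference of labelled pesticide minus labelled control (vertical axis) for each of the 87 genes, by complex (horizontal axis), in labelled males, labelled females and their mean. Each circle is a gene, filled red where the adjusted p was under 0.05, and lines are the median of a complex. Most genes lie within 0.1 of 0, the passing genes of complexes I, III and IV lie below 0 apart from Ndufa7, and the passing point of complex V is Atp5sl at 0.35 in the mean.

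The calls are given by complex. In the mean comparison, where 19.3% of all genes were lower and 20.6% higher, complex I had 10 genes lower and 1 higher of 36, complex II 0 of 8, complex III 2 lower of 8, complex IV 3 lower of 17, and complex V 0 lower and 1 higher of 18. The medians were -0.09 for complex I, -0.05 for complex II, -0.04 for complexes III and IV and -0.02 for complex V. Among all genes 53.2% had a difference below 0, while in complex I 28 of 36 genes did (77.8%) and in complex V 10 of 18 (55.6%). A like excess stood between the labelled sexes, where no gene passed. In labelled control 77.8% of complex I and 72.2% of complex V genes were lower in labelled males, against 53.4% of all genes. In labelled pesticide the shares were 83.3% and 77.8%, against 50.7%. The structural genes alone gave 15 lower and 1 higher of 79. The counts by complex also moved with the scaling: under 75th percentile scaling 16, 1, 2, 5 and 5 genes of complexes I to V were lower on the median signal, and 19, 2, 4, 6 and 5 on the processed signal. The 19.3% above is not the base for these counts. Under the scalings 35.9% and 37.6% of the probes tested passed in either direction, with medians of -0.05 and -0.04. The share lower is not given. Whether complexes differed from each other was not tested.

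Groups overlapped in all 5 complexes. The median over the 36 complex I genes, each centred on its mean over the 24 arrays, ran from -0.05 to 0.14 in labelled male control (median 0.02) and from -0.14 to 0.03 in labelled male pesticide (median -0.06). In labelled females it ran from -0.05 to 0.11 in control (median 0.09) and from -0.05 to 0.04 in pesticide (median -0.03). For complex V it ran from -0.11 to 0.09 and from -0.09 to 0.04 in labelled male control and pesticide. Labelled male pesticide 4 was the lowest array of its group for complexes I to IV (-0.14, -0.14, -0.15 and -0.14), and without it 5 members passed in labelled males in place of 8.

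**Figure D2:**
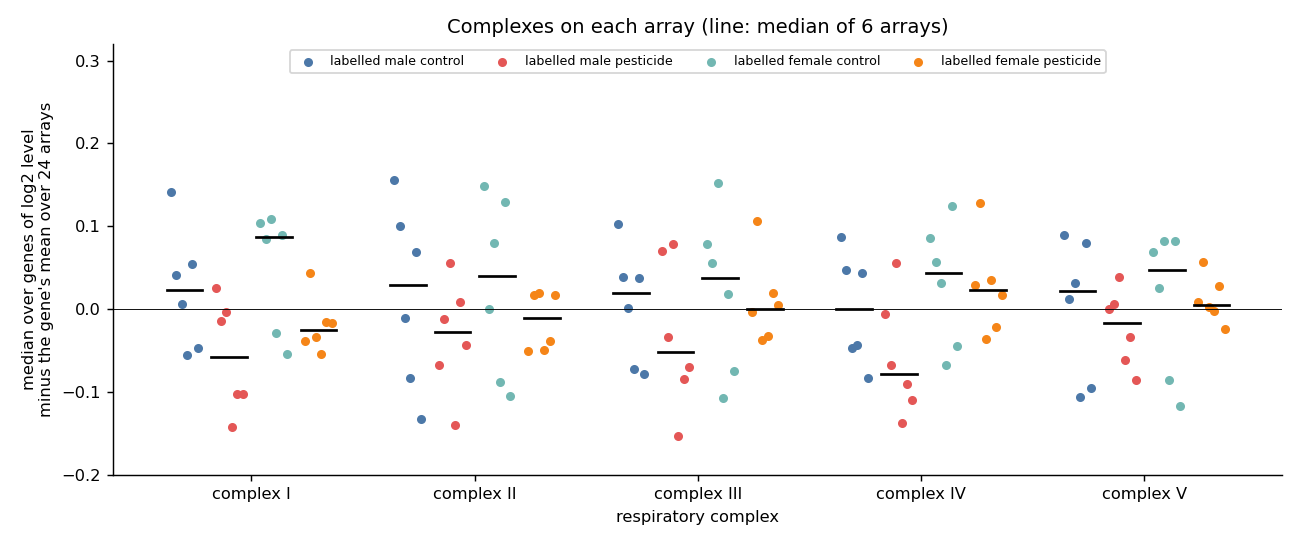
Median over the genes of each complex (horizontal axis) of the log2 level minus the gene's own mean over 24 arrays (vertical axis), 1 point per array, coloured by group, with the median of 6 arrays as a line. Points of the labelled diets overlap in each complex, between -0.15 and 0.16 in all.

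Complex I oxidises NADH. Its peripheral arm holds the flavin and the iron-sulfur clusters on its nuclear core subunits, and accessory subunits surround them and the membrane arm. Of the core genes 1 passed in the mean comparison, Ndufs3, while Ndufs1 stood at -0.12 (adjusted p 0.088) and Ndufs7, Ndufs8 and Ndufv2 at -0.05 each. Of the 9 accessory genes of the peripheral arm 3 were lower and 1 higher, and of the 20 of the membrane arm 6 were lower and 0 higher.

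Ndufs3, a core subunit of the peripheral arm, had its lowest, median and highest array at 15.25, 15.27 and 15.45 in labelled male control and at 14.99, 15.05 and 15.28 in labelled male pesticide. In labelled females the values were 15.14, 15.27 and 15.45 in control and 15.05, 15.11 and 15.21 in pesticide. Only labelled male pesticide 1, at 15.28, reached into the control range in labelled males. The gene fell in labelled males (log2 difference -0.23, SE 0.06, limma adjusted p 0.011) and in the mean (-0.19, SE 0.04, adjusted p 0.0013), and in labelled females the difference was -0.16 (SE 0.06, adjusted p 0.072). Its probe lies on chromosome 2 from 90734793 to 90734852 in mm9, the mouse build the array files use.

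Ndufs4, an accessory subunit whose loss causes Leigh syndrome, measured 13.59, 14.08 and 14.16 in labelled male control and 13.61, 13.73 and 13.86 in labelled male pesticide. In labelled females the lowest, median and highest arrays were at 13.84, 14.03 and 14.25 in control and at 13.76, 13.82 and 13.90 in pesticide. One labelled male control array, at 13.59, lay below all of labelled male pesticide, and the other 5 lay above all of it. Ndufs4 fell in labelled males (-0.27, SE 0.09, adjusted p 0.027) and in the mean (-0.24, SE 0.06, adjusted p 0.0038), the largest fall of complex I there. The call in labelled males was lost for 5 of the 24 arrays left out 1 at a time (adjusted p up to 0.067), all 5 labelled male. The call in the mean was lost for 0.

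Ndufv1 carries the flavin that accepts electrons from NADH. It passed in labelled males (-0.19, SE 0.06, adjusted p 0.032), where its arrays did not overlap (15.44 to 15.65 in control and 15.08 to 15.41 in pesticide). In labelled females the groups were alike (15.33 to 15.49 and 15.36 to 15.49), with a difference of -0.02 (SE 0.06, adjusted p 0.89). The interaction of labelled diet and labelled sex was -0.17 (SE 0.09) with an unadjusted p of 0.062 and an adjusted p of 1.0, so a difference between the labelled sexes was not shown. A second, dimmer Ndufv1 probe gave -0.09 in labelled males and 0.12 in labelled females, and with the mean of both probes the labelled male call was lost (adjusted p 0.071). It was lost too without labelled male control 5, labelled male pesticide 2 or labelled male pesticide 4 (adjusted p up to 0.095).

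Ndufa3, a small accessory subunit of the membrane arm, had its lowest, median and highest arrays at 15.63, 15.73 and 15.87 in labelled female control and at 15.52, 15.56 and 15.61 in labelled female pesticide, with no overlap. In labelled males they were at 15.52, 15.64 and 15.82 and at 15.40, 15.51 and 15.69. The gene fell in labelled females (-0.18, SE 0.06, adjusted p 0.042), where the call was lost for 11 of the 24 arrays when they were left out 1 at a time (adjusted p up to 0.096). All 11 were labelled female arrays. The call stood under 7 of the 11 alternatives to the processing and was lost with the mean of its probes (adjusted p 0.063). Its dimmer probes gave -0.13 and -0.11 in labelled females (adjusted p 0.28 and 0.24). In labelled males the difference was -0.14 (SE 0.06, adjusted p 0.11), and the mean passed (-0.16, SE 0.04, adjusted p 0.0057).

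The other complex I genes that passed did so only in the mean over both labelled sexes. Lower were Ndufa10 (-0.21, SE 0.06, adjusted p 0.012), Ndufb2 (-0.13, SE 0.04, adjusted p 0.015), Ndufs5 (-0.18, SE 0.06, adjusted p 0.018), and Ndufa1 (-0.16, SE 0.05, adjusted p 0.025). Further accessory genes near the threshold were Ndufa2 (-0.12, adjusted p 0.034), Ndufa8 (-0.23, adjusted p 0.034) and Ndufs6 (-0.15, adjusted p 0.036), and each of these 3 was lost for 8 to 12 of the arrays left out 1 at a time and with no filter on dim probes. Just outside was Ndufa12 (-0.10, adjusted p 0.053). Ndufb3 had a difference as large as that of Ndufa10, -0.21, and did not pass (adjusted p 0.086).

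Ndufa7, an accessory subunit of the peripheral arm, was the 1 complex I gene that rose. Its arrays ran from 15.28 to 15.42 in labelled male control (median 15.35) and from 15.34 to 15.58 in labelled male pesticide (median 15.52). In labelled females they ran from 15.31 to 15.56 (median 15.46) and from 15.51 to 15.59 (median 15.55). On 11 of 12 labelled pesticide arrays the level was above the median of the control group of the same labelled sex. The mean difference was 0.13 (SE 0.04, adjusted p 0.011), and with each array scaled to its 75th percentile it did not pass (adjusted p 0.19 on the median signal and 0.25 on the processed signal).

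Complex II passes electrons from succinate to coenzyme Q and is also an enzyme of the citric acid cycle. None of its 8 genes passed in the mean comparison by limma, and 1 had an unadjusted p under 0.05, Sdha. The catalytic subunit genes Sdha and Sdhb had mean differences of -0.14 (SE 0.06, adjusted p 0.065) and -0.13 (SE 0.07, adjusted p 0.14). Sdha ran from 14.04 to 14.53 in labelled male control, from 14.10 to 14.37 in labelled male pesticide, from 14.16 to 14.54 in labelled female control and from 14.12 to 14.33 in labelled female pesticide, with the groups overlapping. The membrane anchors Sdhc and Sdhd stood at 0.05 and -0.05, and the 4 assembly factors between -0.09 (Sdhaf3) and 0.05 (Sdhaf2). Scaling to the 75th percentile brought Sdha past the threshold (-0.18, adjusted p 0.047).

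Complex III moves electrons from coenzyme Q to cytochrome c. Uqcrc1, a core protein of its matrix side, had its lowest, median and highest arrays at 14.93, 14.98 and 15.18 in labelled male control and at 14.52, 14.79 and 14.84 in labelled male pesticide. In labelled females they lay at 14.89, 15.04 and 15.12 in control and at 14.70, 14.77 and 14.95 in pesticide. The labelled male groups did not overlap, and the labelled female groups overlapped between 14.89 and 14.95. It fell in labelled males (-0.25, SE 0.07, adjusted p 0.008), in labelled females (-0.22, SE 0.07, adjusted p 0.019) and in the mean (-0.24, SE 0.05, adjusted p 0.00033, a 1.18-fold fall). Its probe lies on chromosome 9 from 108851624 to 108851683 (mm9).

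Uqcr10, a small subunit of complex III, fell in labelled males (-0.17, SE 0.06, adjusted p 0.038) and in the mean (-0.16, SE 0.04, adjusted p 0.0045). Its arrays ran from 16.51 to 16.71 in labelled male control and from 16.36 to 16.56 in labelled male pesticide, and from 16.56 to 16.80 and from 16.41 to 16.64 in labelled females, overlapping in both. A second Uqcr10 probe gave -0.20 (SE 0.05, adjusted p 0.0047) in the mean. The call in labelled males was lost for 8 of the 24 arrays left out 1 at a time (adjusted p up to 0.087), all 8 labelled male. Of the other complex III genes, the second core protein Uqcrc2 stood at -0.11 (adjusted p 0.10), the Rieske iron-sulfur protein Uqcrfs1 at -0.09 (adjusted p 0.39), and Uqcr11, Uqcrb, Uqcrh and Uqcrq between 0.01 and 0.07.

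Complex IV hands electrons to oxygen. Ndufa4, a subunit recognised late, had the smallest p-value of the 87 genes in labelled males and in the mean, and in labelled females that of Atp5sl was smaller. The lowest, median and highest arrays were at 14.99, 15.29 and 15.31 in labelled male control and at 14.88, 14.89 and 15.01 in labelled male pesticide. In labelled females they were at 15.14, 15.28 and 15.34 in control and at 14.84, 15.00 and 15.08 in pesticide, with no overlap. In labelled males 1 control array, at 14.99, lay within the pesticide range. Ndufa4 fell in labelled males (-0.30, SE 0.07, adjusted p 0.0021), in labelled females (-0.27, SE 0.07, adjusted p 0.0057) and in the mean (-0.28, SE 0.05, adjusted p 4.5e-05, a 1.22-fold fall). All 12 labelled pesticide arrays lay below the control median of their labelled sex, and the mean difference was -0.36, -0.24 and -0.25 on the 3 slides taken alone. The probe lies on chromosome 6 from 11850423 to 11850482 (mm9).

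Cox7a2, the widely expressed isoform of subunit VIIa, fell by as much. Labelled male arrays were at 15.81, 16.06 and 16.20 in control (lowest, median and highest) and at 15.63, 15.79 and 15.90 in pesticide. Labelled female arrays were at 15.90, 16.09 and 16.28 in control and at 15.71, 15.82 and 15.95 in pesticide. Both pairs of groups overlapped at 1 control array. The difference was -0.28 in labelled males (SE 0.08, adjusted p 0.012), -0.28 in labelled females (SE 0.08, adjusted p 0.013) and -0.28 in the mean (SE 0.05, adjusted p 0.00032). Ndufa4, Cox7a2 and Uqcrc1 passed in both labelled sexes under each of the 11 alternatives to the processing and each of the 24 arrays left out, apart from the slides taken alone.

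**Figure D3:**
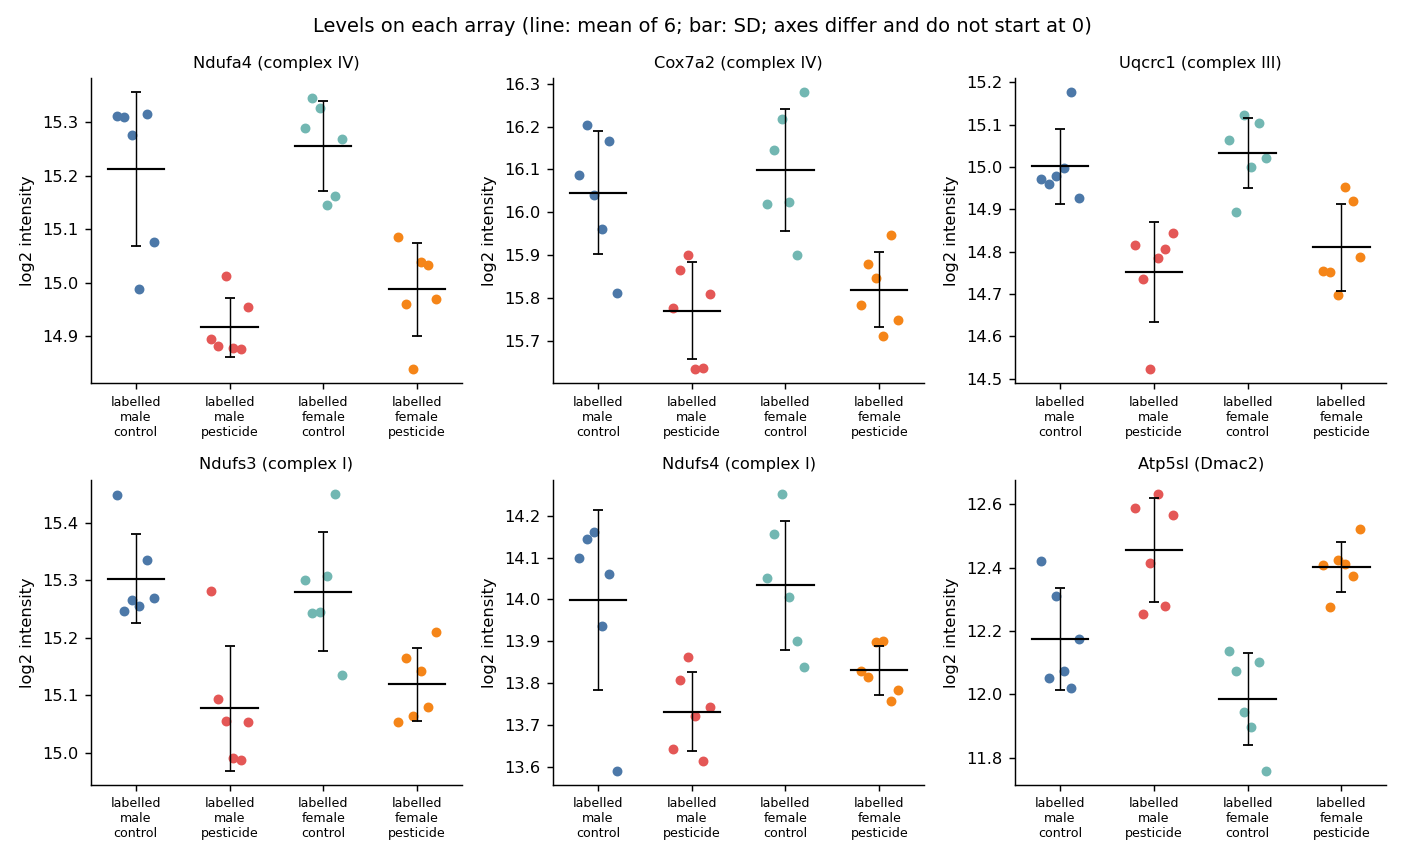
Log2 intensity (vertical axis) of Ndufa4, Cox7a2, Uqcrc1, Ndufs3, Ndufs4 and Atp5sl on each array, by group (horizontal axis), with the mean of 6 arrays as a line and the SD as a bar. The first 5 are lower in labelled pesticide in the mean over both labelled sexes, by 0.19 to 0.28, and Atp5sl is higher by 0.35.

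Of the 10 widely expressed complex IV genes, 8 did not pass. Cox4i1 stood at 0.02 (SE 0.04, adjusted p 0.68) in the mean, Cox6a1 at 0.00 (adjusted p 0.95), Cox8a at -0.01 (adjusted p 0.91), Cox6b1 at -0.04 (adjusted p 0.51), Cox7b at -0.07 (adjusted p 0.40) and Cox5a at -0.13 (adjusted p 0.083). Cox4i1, through which ATP inhibits complex IV, ran from 16.73 to 16.85 in labelled male control and from 16.76 to 16.87 in labelled male pesticide. Cox6a1 gave a mean difference of -0.18 (adjusted p 0.037) with median signals scaled to the 75th percentile. Cox6b1 passed in the mean with the processed signal scaled in that way (-0.13, adjusted p 0.031), and in labelled males under both scalings (-0.21, adjusted p 0.033, and -0.22, adjusted p 0.02). The supercomplex factor Cox7a2l stood at 0.09 (adjusted p 0.097).

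Of the 6 tissue isoforms measured, 1 passed. Cox8b, the muscle and brown fat isoform of subunit VIII, was close to background: it was well above it on 6 and 5 arrays of labelled male and female control, and on 5 and 4 arrays of labelled male and female pesticide. Its lowest, median and highest arrays were at 5.71, 6.70 and 7.35 in labelled female control and at 5.49, 5.90 and 6.24 in labelled female pesticide. In labelled males they were at 5.96, 6.20 and 6.73 and at 5.59, 5.81 and 6.09. The groups overlapped in both labelled sexes. The difference was -0.64 in labelled females (SE 0.20, adjusted p 0.03), -0.40 in labelled males (SE 0.20, adjusted p 0.16) and -0.52 in the mean (SE 0.14, adjusted p 0.0064), the largest of any member. The labelled female call was lost for 7 of 24 arrays left out 1 at a time, all 7 labelled female. It was also lost under both scalings to the 75th percentile (adjusted p 0.059 and 0.092).

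Markers of fat and muscle are given beside Cox8b. Cidea, a lipid droplet gene of brown fat and fatty liver, went from 11.78 ± 1.92 to 5.84 ± 0.17 between control and pesticide in labelled males (SD, n = 6), from 13.43 ± 2.81 to 6.04 ± 0.29 in labelled females, and fell by 6.67 on the log2 scale in the mean (limma adjusted p 2.1e-08). The fat cell markers Adipoq and Plin1 were each well above background on 1 array, and Fabp4 and Lep stood at -0.02 and -0.06. Of the 6 skeletal muscle markers Ckm and Actn3 were above background on 0 arrays and Acta1 on 2, and the 3 measured, Myh4, Mylpf and Tnnt3, stood at -0.03, 0.00 and 0.16 (adjusted p 0.83, 0.98 and 0.088). Their part in the Cox8b difference was not tested.

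Cox6a2, the heart and muscle isoform of subunit VIa, measured 5.96, 6.09 and 6.50 in labelled male control and 6.35, 6.56 and 6.73 in labelled male pesticide, and 6.30, 6.38 and 7.76 in labelled female control and 6.20, 6.50 and 6.90 in labelled female pesticide. Labelled female control 4, at 7.76, stood apart from the next array of its group at 6.45. With all arrays the difference was 0.42 in labelled males (SE 0.18, adjusted p 0.099) and 0.17 in the mean (SE 0.13, adjusted p 0.32). Without that array the spread shrank, and Cox6a2 passed in labelled males (0.42, SE 0.10, adjusted p 0.0038) and in the mean (0.29, SE 0.07, adjusted p 0.0033). With all arrays it passed in labelled males under 75th percentile scaling of the processed signal (0.75, SE 0.26, adjusted p 0.039), and where only the labelled male arrays were fitted (adjusted p 0.0078). The same array held the highest mean of the 5 T and NK cell markers measured, 10.75. A link between these markers and Cox6a2 was not tested.

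The 4 other isoforms did not pass. Cox7a1, the muscle isoform of subunit VIIa, stood at 0.11 in the mean (SE 0.15, adjusted p 0.60) and varied widely, from 10.42 to 11.67 within labelled female control alone. Cox4i2, the oxygen-sensitive isoform of subunit IV, stood at -0.07 (adjusted p 0.36), and Cox6b2, known from testis, at 0.11 (adjusted p 0.38). Ndufa4l2, the hypoxia-induced relative of Ndufa4, stood at 0.16 (SE 0.07, adjusted p 0.084), while Ndufa4 itself fell by 0.28. The difference between the 2 genes was not tested.

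**Figure D4:**
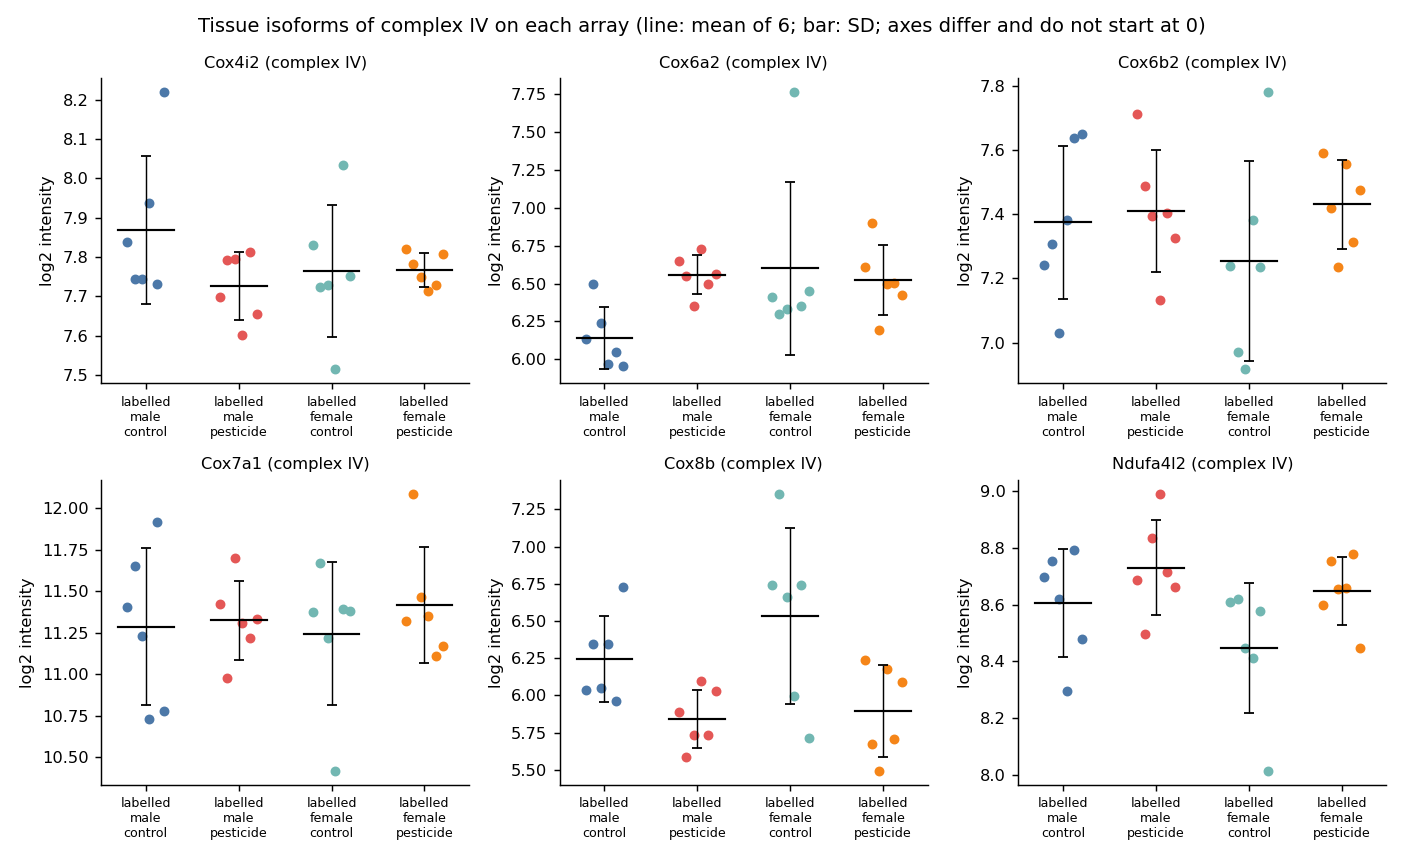
Log2 intensity (vertical axis) of the 6 tissue isoforms of complex IV on each array, by group (horizontal axis), with the mean of 6 arrays as a line and the SD as a bar. The groups overlap in each panel, Cox6a2 has 1 labelled female control array at 7.76, and Cox8b is lower in labelled pesticide by 0.52 in the mean over both labelled sexes.

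Complex V makes ATP with a catalytic F1 head, a ring of c subunits turned by protons and a peripheral stalk that holds them together. No gene of these parts passed by limma in the mean comparison, and 2 had an unadjusted p under 0.05, Atp5d and Atp5j. Under both scalings to the 75th percentile 5 genes of the complex were lower in the mean, and with a replicate block 1 was. Of the F1 head genes, Atp5a1 and Atp5b, which form its catalytic core, stood at 0.07 and 0.06, Atp5c1 at -0.03, Atp5d at -0.09 and Atp5e at -0.08. The peripheral stalk genes Atp5f1, Atp5h, Atp5j and Atp5o lay between -0.09 and 0.02. Atp5j came closest to the threshold among them (adjusted p 0.059). In labelled males the arrays of Atp5d did not overlap (14.84 to 15.02 in control and 14.74 to 14.83 in pesticide), and the difference of -0.14 did not pass (SE 0.06, adjusted p 0.099). It passed under both scalings (-0.21, adjusted p 0.033, and -0.22, adjusted p 0.02). Non-overlapping arrays were found for 3 members in labelled males, Atp5d, Ndufv1 and Uqcrc1, against 11.9% of all genes, and for 3 in labelled females, Atp5sl, Ndufa3 and Ndufa4, against 8.94% of all genes.

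The genes Atp5g1, Atp5g2 and Atp5g3 encode the same mature c subunit behind different import signals. They stood at 0.03 (SE 0.04, adjusted p 0.65), 0.06 (SE 0.05, adjusted p 0.32) and -0.11 (SE 0.07, adjusted p 0.23) in the mean. Atp5g3 ran from 16.38 to 16.83 in labelled male control and from 16.32 to 16.73 in labelled male pesticide. It passed under both scalings to the 75th percentile (-0.21, adjusted p 0.039, and -0.22, adjusted p 0.034). The small membrane subunits Atp5j2, Atp5k and Atp5l lay between -0.05 and 0.02, and the pseudogene Atp5c1-ps at 0.04 may share sequence with Atp5c1.

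Atp5sl carries an ATP synthase name, while its protein, Dmac2, is known from the assembly of complex I. The lowest, median and highest arrays were at 12.02, 12.12 and 12.42 in labelled male control and at 12.25, 12.49 and 12.63 in labelled male pesticide. In labelled females they were at 11.76, 12.01 and 12.14 in control and at 12.28, 12.41 and 12.52 in pesticide, with no overlap. It rose in labelled males (0.28, SE 0.08, adjusted p 0.02), in labelled females (0.42, SE 0.08, adjusted p 0.0013) and in the mean (0.35, SE 0.06, adjusted p 8e-05, a 1.27-fold rise). A second probe gave 0.33 in the mean (SE 0.07, adjusted p 0.00041). In labelled males the call was lost without labelled male pesticide 4 (adjusted p 0.053) and under both scalings to the 75th percentile (adjusted p 0.13 and 0.15). Its relative Atp5s stood at -0.01. The Atp5sl probe lies on chromosome 7 from 26410510 to 26410569 (mm9).

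Other probes for the same genes gave a partial check. For 30 members the array held 41 further probes above the limit, and 25 of these had the sign of the brightest probe in the mean comparison. Of these 41, 6 passed, and for Ndufa10, Ndufb2, Uqcr10 and Atp5sl the second probe passed in the same direction as the first. The other 2 were dim probes whose bright probe did not pass. For Ndufa13, a membrane arm subunit, the dim probe was higher by 0.27 (SE 0.09, adjusted p 0.018) while the bright probe stood at -0.03. For Atp5f1, of the peripheral stalk, the dim probe stood at -0.28 (SE 0.08, adjusted p 0.0072) while the bright probe stood at -0.03.

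Labelled males and labelled females differed in no member within either labelled diet. By limma 0 of 87 genes passed between labelled male and labelled female control, against 0.0% of all genes, and 2 had an unadjusted p under 0.05, Cox6a2 (-0.46) and Atp5sl (0.19). Between labelled male and labelled female pesticide 0 passed, against 0.0% of all genes, with 1 at an unadjusted p under 0.05, Cox7c (-0.14). For the interaction of labelled diet and labelled sex 0 passed, against 0.0% of all genes, and 0 had an unadjusted p under 0.05. The median member stood at -0.03, -0.04 and -0.02 in these comparisons, and the alternatives to the processing gave 0 calls in each as well. The calls in labelled males and labelled females shared 4 genes, Ndufa4, Cox7a2, Uqcrc1 and Atp5sl, which is 4 of the 8 labelled male calls and 4 of the 6 labelled female calls. On the X chromosome lie 3 members, Ndufa1, Ndufb11 and Cox7b, with mean differences of -0.16, 0.05 and -0.07, and of these Ndufa1 passed.

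The promoters of genes that passed are shown to compare what lies at their starts. Each is the RefSeq window (build GRCm38.p6) from 250 bases before to 50 bases after the gene's start, read 5′ to 3′ on the gene's strand. Capitals mark matches to a motif on either strand: GCGCATGCG for NRF1 in Uqcrc1 (on both strands, overlapping), AAGATGGCG for YY1 in Atp5sl and Ndufs4, and CCGGAAG for ETS factors in Ndufs3. The first 4 genes passed in both labelled sexes, and the others in labelled males and the mean. Uqcr10 also passed in labelled males and the mean, and its window, not shown, held no match to these motifs. The windows are Ndufa4 at chr6:11907401-11907700 (minus strand), Cox7a2 at chr9:79759804-79760103 (minus), Uqcrc1 at chr9:108936398-108936697 (plus), Atp5sl at chr7:25619164-25619463 (plus, the first of 2 listed starts), Ndufs4 at chr13:114388045-114388344 (minus) and Ndufs3 at chr2:90904672-90904971 (minus).
Ndufa4: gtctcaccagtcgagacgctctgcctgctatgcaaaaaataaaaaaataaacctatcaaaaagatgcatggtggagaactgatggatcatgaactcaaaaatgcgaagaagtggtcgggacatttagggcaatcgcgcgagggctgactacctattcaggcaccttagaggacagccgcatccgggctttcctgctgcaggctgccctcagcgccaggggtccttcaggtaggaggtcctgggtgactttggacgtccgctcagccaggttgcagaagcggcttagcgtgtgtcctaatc
Cox7a2: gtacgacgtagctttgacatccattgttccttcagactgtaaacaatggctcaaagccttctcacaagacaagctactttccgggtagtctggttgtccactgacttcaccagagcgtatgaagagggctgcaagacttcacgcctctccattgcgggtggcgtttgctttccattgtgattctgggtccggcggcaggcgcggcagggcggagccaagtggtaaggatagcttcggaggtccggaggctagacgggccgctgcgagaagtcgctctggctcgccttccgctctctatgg
Uqcrc1: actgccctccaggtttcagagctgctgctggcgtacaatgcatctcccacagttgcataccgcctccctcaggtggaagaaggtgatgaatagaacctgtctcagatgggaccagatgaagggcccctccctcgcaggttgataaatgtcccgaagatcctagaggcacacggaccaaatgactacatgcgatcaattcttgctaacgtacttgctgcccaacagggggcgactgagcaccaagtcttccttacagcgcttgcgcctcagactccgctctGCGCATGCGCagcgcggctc
Atp5sl: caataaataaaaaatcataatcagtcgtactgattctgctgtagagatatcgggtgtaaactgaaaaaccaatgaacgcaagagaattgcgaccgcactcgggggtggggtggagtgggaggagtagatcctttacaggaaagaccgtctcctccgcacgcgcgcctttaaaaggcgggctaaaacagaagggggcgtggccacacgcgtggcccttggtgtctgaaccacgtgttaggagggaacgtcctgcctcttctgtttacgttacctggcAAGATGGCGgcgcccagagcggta
Ndufs4: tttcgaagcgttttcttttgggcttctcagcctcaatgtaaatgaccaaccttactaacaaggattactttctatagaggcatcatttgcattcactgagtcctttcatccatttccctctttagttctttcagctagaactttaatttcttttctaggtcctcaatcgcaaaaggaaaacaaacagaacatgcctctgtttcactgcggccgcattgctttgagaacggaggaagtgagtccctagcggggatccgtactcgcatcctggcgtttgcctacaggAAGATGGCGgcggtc
Ndufs3: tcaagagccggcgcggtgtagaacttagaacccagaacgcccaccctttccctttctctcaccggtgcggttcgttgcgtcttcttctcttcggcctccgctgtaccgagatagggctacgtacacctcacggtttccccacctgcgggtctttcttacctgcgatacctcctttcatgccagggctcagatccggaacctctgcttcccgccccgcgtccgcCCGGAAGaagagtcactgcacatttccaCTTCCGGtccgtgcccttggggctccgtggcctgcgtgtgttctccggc

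The windows of Ndufa4 and Cox7a2, the genes with the smallest p-values in complex IV, held no match to these motifs, to TCAAGGTCA for ERR or to GGGGCGGGG, the GC box. Of the 87 genes 72 had a promoter in the table, 16 of them among the 17 that passed in the mean. Matches were found in 8 of 72 for NRF1 (11.1%, against 1.95% of 27025 genes), in 8 for YY1 (11.1% against 1.64%), in 19 for ETS factors (26.4% against 9.93%), in 2 for ERR (2.78% against 0.466%) and in 12 for the GC box (16.7% against 12.9%). The 27025 genes were not limited to the 14824 kept by the same rule as the members, so the 2 shares have unlike bases. The genes that passed held 2 of the 8 NRF1 windows (Uqcrc1 and Ndufa8), 3 of the 8 YY1 windows and 1 of the 19 ETS windows (Ndufs3). A match is a run of letters and not a binding site, and no difference between the passing genes and the others was tested.

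The neighbouring genes of the respiratory chain are given next, from lists written by name. Of the mitochondrially encoded subunits 11 were measured, and in the mean comparison 5 were lower and 0 higher, against 19.3% lower and 20.6% higher of all genes: ATP8 (-0.17, adjusted p 0.011), ND5 (-0.23, adjusted p 0.014), ND4L (-0.22, adjusted p 0.014) and ND1 (-0.21, adjusted p 0.031), with ND2 the fifth. CYTB stood at 0.03 and COX2 at 0.00. The list's median was -0.07.

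Assembly factors bring subunits and cofactors together. For complex IV 9 of 21 were lower and 0 higher (median -0.15), against 19.3% lower of all genes. Cox19, a copper-handling factor, fell by 0.89 (SE 0.06, adjusted p 6.2e-11), Cox18, which inserts the second core subunit, by 0.44 (adjusted p 0.00024), Coa5 by 0.35 (adjusted p 0.0017) and Coa7 by 0.32 (adjusted p 0.0019). For complex I 5 of 13 were lower and 0 higher (median -0.08), led by Ecsit (-0.27, adjusted p 2.7e-05) and Foxred1 (-0.29, adjusted p 0.00014). For complex III 1 of 6 was lower, Ttc19 (-0.41, adjusted p 0.0001), and for complex V 1 of 3, Atpaf2 (-0.16, adjusted p 0.0031). Whether assembly factors and subunits differed was not tested.

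Counts in the next lists stand against 19.3% lower and 20.6% higher of all genes. Of the 7 electron carrier genes 2 were lower and 0 higher: Cycs, the cytochrome c of most tissues, by 0.37 (SE 0.07, adjusted p 0.00014) and Cyc1, the cytochrome c1 subunit of complex III, by 0.20 (adjusted p 0.029). In coenzyme Q synthesis 5 of 13 were lower and 2 higher, with Coq7 at -0.78 (SE 0.07, adjusted p 2.2e-08), Coq10b at -0.75 (adjusted p 0.00023), Pdss2 at -0.29 (adjusted p 0.00066) and Coq8a at 0.38 (adjusted p 0.0046). Of the citric acid cycle genes 5 of 18 were lower and 3 higher, with fumarase Fh1 at -0.53 (adjusted p 3.7e-06) and Idh2 at 0.51 (adjusted p 0.00039). Of 16 regulators of mitochondrial biogenesis 1 was lower, Tfb1m (-0.19), and 2 were higher, Ppargc1b (0.54) and Twnk (0.18).

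Among genes that handle the products of the chain, of 6 carriers and uncoupling genes 4 were higher and 0 lower, against 20.6% higher of all genes: Atpif1, the inhibitor of complex V (0.58, SE 0.08, adjusted p 4e-06), Slc25a4, an ADP and ATP carrier (0.51, SE 0.09, adjusted p 0.0001), and the uncoupling proteins Ucp2 (0.94, SE 0.17, adjusted p 0.00016) and Ucp3 (0.88, SE 0.17, adjusted p 0.00033). Ucp2 is known from macrophages, and 11 of 12 Kupffer cell markers were higher in the same groups. The part of these cells was not tested.

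Ribosomal protein genes were counted for both ribosomes. Of 78 genes of the mitochondrial ribosome, which makes the mitochondrially encoded subunits, 28 were lower, 2 were higher and 48 did not pass (median -0.08, against 19.3% lower and 20.6% higher of all genes), with Mrpl20 at -0.40 (adjusted p 4.2e-07) and Mrpl15 at 0.39 (adjusted p 5.8e-06). Of 75 genes of the cytosolic ribosome 61 were higher, 0 lower and 14 did not pass (median 0.18), with Rps28 at 0.35 (adjusted p 8.7e-07). The difference between the lists was not tested.

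**Figure D5:**
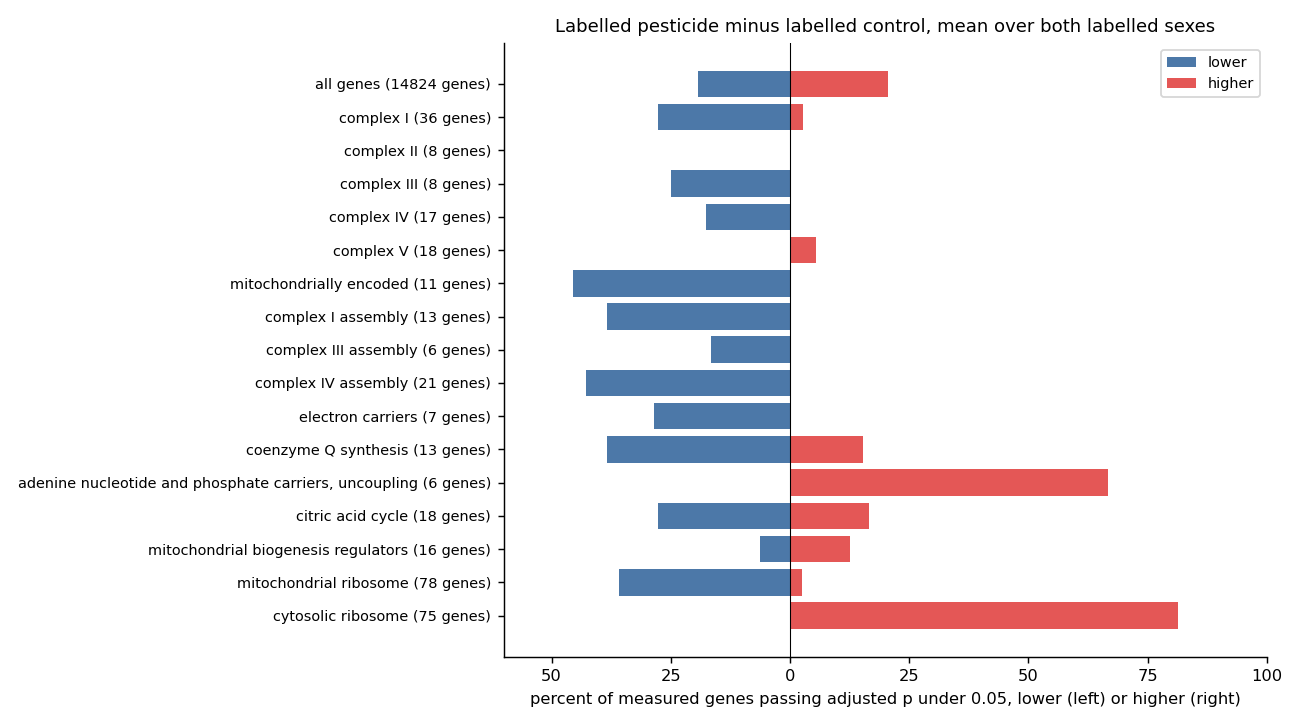
Percent of the measured genes of each list (horizontal axis) that were lower (left, blue) or higher (right, red) in labelled pesticide in the mean over both labelled sexes, at a limma adjusted p under 0.05, with all 14824 genes in the top row. With quantile normalization complex V has 0 lower, complex II has no bar, and the cytosolic ribosome has 61 of 75 genes higher.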

How the data were processed

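Liver RNA of 24 labelled samples was measured on single-colour Agilent arrays. Fluorescence intensity per spot and quality marks are what the deposited scanner files hold, per the file headers, as read by Agilent Feature Extraction 10.10.1.1 per the submitters' processing notes, which also name limma. The authors also deposited a table of log2 values; per the labels, the median signal was filtered, put on the log2 scale and quantile normalized. The filter is not given in the sources used here. Each array matched its own column of that table best (24 of 24).

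Here the median signal was taken on the log2 scale without background subtraction, spots marked as non-uniform outliers (0 to 9 per array) were dropped, spots of a probe averaged, and 56605 probes quantile normalized. Probes well above background on at least 4 of 6 arrays of a group (32078) were tested with limma 3.58.1 in R 4.3.3: 1 mean per group, no block, two-sided tests, Benjamini-Hochberg adjustment. The test was checked on simulated data. Arrays give no counts, and their number limits the precision. Gene names are those of the array design, matched to RefSeq where possible.

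The members, gene lists and naming rule were chosen with earlier results of these data known. Genes named are those that passed, the extremes of each complex, isoform partners and up to 4 genes of a list, and 1 gene is not reported here by name. The replicate numbers of the labels were not treated as pairs. Alternatives were scaling to the 75th percentile (of the median or the processed signal), normexp (offset 50), 2 other filters, a slide block, each slide, a replicate block, only the arrays compared, trend and robust eBayes, the value table, mean of probes, and each array left out.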

Additional observations from a re-analysis of the deposited data

Results flagged for a closer look

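In 176 groups of 6 arrays (39 named genes and the 5 complex medians), 12 had 1 array far from the rest, which is 6.82%, and chance alone sets about 1 in 20 apart. Labelled female control 4 was high in Cox6a2 (7.76, next array 6.45) and low in Cox7a1 (10.42, next 11.22) and Atp5g2 (15.42, next 15.64). Labelled female control 6 was low in Ndufa4l2 at 8.01. Labelled male control 5 was high in Ndufv1 (15.65) and in Uqcrc1 (15.18). Labelled male pesticide 1 was high in Cox4i1 (16.87) and in Ndufs3 (15.28), labelled male pesticide 3 low in Uqcrc1 (14.52), and labelled male pesticide 5 high in Ndufa10 (14.42). Labelled female pesticide 2 was high in Cox7a1 (12.09), and labelled female pesticide 4 in Sdhc (14.16).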

How the results depend on the processing

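Scaling to the 75th percentile called 16 members in labelled males and 30 in the mean on the median signal, and 19 and 37 on the processed signal, in place of 8 and 17. The median member moved to -0.16 and -0.18 in labelled males and to -0.13 in the mean. Single slides, with 2 arrays per group, called 0 in labelled males, 0 in labelled females, and 3, 0 and 0 in the mean. Same-numbered arrays deviated with r from -0.118 to 0.337 (median 0.078), with 15 of 36 pairs over 0.1. For arrays of different groups the median r was 0.0355 on the same slide and -0.0267 on other slides. Of the 24 arrays 14 correlated best with their own number, so arrays of the same number were alike in part. The main fit did not use the numbers. A replicate block called 15, 12 and 27 in labelled males, labelled females and the mean, in place of 8, 6 and 17. These were 17.2%, 13.8% and 31.0% of the members, against 25.2%, 21.0% and 39.4% of the probes tested under that block. The share of members thus stayed below that of the probes. With arrays left out 1 at a time the counts were 5 to 9, 4 to 7 and 14 to 24, and 0 in both comparisons of labelled sex and in the interaction. The lowest labelled male count was without labelled male pesticide 4. The other alternatives kept counts within 1.5 times, and no named member that passed changed sign. All 18 named members that passed in any comparison lost a call under at least 1 setting. Single slides, where few or no members passed, were among these settings, so this count does not measure how stable a gene was. Under the same settings 10 named members gained a call.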
